A study of Mus musculus with 14 samples.

Results

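The genes followed here mark the neural crest and the glial and pigment cells that descend from it: Sox10 and Foxd3, which encode transcription factors of migrating crest, the receptor genes Erbb3, Ngfr and Ednrb, and Mitf, which encodes the master regulator of melanocytes. The set was chosen with earlier results of these data known. Its genes were matched by symbol, and all 6 of them were found among the 23284 symbols of the count tables. The RNA came from whole forelimb buds of NMRI mouse embryos, both buds of 1 embryo making 1 replicate. Wild-type embryos were Smad4+/+ PrxCreT/+ and mutant embryos Smad4Δ/Δc PrxCreT/+, so that both carried the Cre transgene, and the mutants combined an inactive Smad4 allele with a conditional one that Cre removes in the limb bud mesenchyme. At 30 somites (E10.0) and again at 35 somites (E10.5) there were 3 wild-type and 4 Smad4Δ/Δc replicates, 14 libraries in all. SMAD4 is the shared partner of the SMADs that carry BMP and TGFβ signals into the nucleus, and the design asked how its loss from the mesenchyme alters transcript levels. Prrx1-driven Cre acts in the mesenchyme, and neither the crest, the ectoderm nor the vessels are its main target.

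Neural crest cells leave the dorsal neural tube and migrate through the trunk. Some of them stay on the growing nerves as Schwann cell precursors, enter the limb bud along these nerves and later give glia and pigment cells. SOX10 holds the multipotent and then the glial state, and FOXD3 represses premature pigment fate. ERBB3 is the receptor through which neuregulin from axons keeps Schwann cell precursors alive, NGFR is the low-affinity neurotrophin receptor p75, and EDNRB receives endothelin 3, a signal that crest-derived melanoblasts and enteric precursors need. None of the receptor genes is restricted to crest cells, since mesenchyme, ectoderm or endothelium also transcribes them.

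The libraries held between 34066930 and 61691258 reads on genes. In the 4 mutant libraries numbered 4 and 5 (both stages), Rn45s, the ribosomal RNA precursor, took 1.72% to 8.05% of the reads, against 0.151% to 0.478% in the other 10. For the 6 genes, the genotype and mutant stage results that passed the test are given with and without these mutant libraries, the others only in part. The values of other genes and gene lists include them. Smad4 checked the labels: its level was 152 to 169 CPM (counts-per-million, normalised) in the wild-type and 36.9 to 46.0 in the Smad4Δ/Δc libraries at 30 somites, and 163 to 167 against 32.9 to 40.7 at 35 somites, a log2 fold change of -2.01 and -2.16 (edgeR, adjusted p = 3.49e-98 and 2.82e-112). The limb mesenchyme genes Prrx1 and Twist1 were high in all groups, as the tissue label requires (group means of Prrx1 between 601 and 866 CPM). Of 8 neural tube progenitor genes, 6 stayed below 10 reads in every library and Nkx2-2 had 0 reads throughout. The neural tube gene Msi1 passed the filter but is transcribed in many tissues.

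Because the genes are few, the DNA in front of them is shown as a reference for where transcription starts. The windows are the 250 bases before the RefSeq start in build GRCm38.p6, read 5′ to 3′ on the gene's strand. They cover Foxd3 and the receptor genes Ngfr and Ednrb, whose levels changed, and the start of the shortest, melanocyte-type Mitf transcript, the last of 3 Mitf starts in the table. The reads were counted per gene, so the count of Mitf sums transcripts from all its starts. The 4 of 6 genes with an entry gave 6 windows. The letters were searched on both strands for 7 short motifs, picked with knowledge of these genes: GGCGCC and GTCTAGAC for SMADs, ACAAAG for SOX factors, GCCNNNGGC for AP-2, CATGTG and CACGTG as E-boxes and TGACGTCA as the cAMP response element. Capitals mark every match, and none of the 4 windows shows overlapping matches.

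Foxd3, chr4:99656049-99656298, plus strand: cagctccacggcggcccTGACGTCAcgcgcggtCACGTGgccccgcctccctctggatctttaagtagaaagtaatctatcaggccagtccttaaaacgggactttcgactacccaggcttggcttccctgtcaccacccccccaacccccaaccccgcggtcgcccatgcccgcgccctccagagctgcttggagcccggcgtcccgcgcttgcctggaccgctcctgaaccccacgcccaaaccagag
Ngfr, chr11:95587699-95587948, minus strand: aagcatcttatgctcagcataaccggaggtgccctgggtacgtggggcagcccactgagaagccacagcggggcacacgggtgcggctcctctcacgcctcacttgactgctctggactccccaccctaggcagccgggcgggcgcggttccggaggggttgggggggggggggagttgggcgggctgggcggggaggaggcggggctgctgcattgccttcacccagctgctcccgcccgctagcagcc
Ednrb, chr14:103843702-103843951, minus strand: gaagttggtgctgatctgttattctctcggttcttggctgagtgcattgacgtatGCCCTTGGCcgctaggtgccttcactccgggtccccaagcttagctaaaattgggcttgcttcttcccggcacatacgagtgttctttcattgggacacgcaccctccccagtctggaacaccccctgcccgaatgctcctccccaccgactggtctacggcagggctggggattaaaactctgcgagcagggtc
Mitf, melanocyte-type start, chr6:97991533-97991782, plus strand: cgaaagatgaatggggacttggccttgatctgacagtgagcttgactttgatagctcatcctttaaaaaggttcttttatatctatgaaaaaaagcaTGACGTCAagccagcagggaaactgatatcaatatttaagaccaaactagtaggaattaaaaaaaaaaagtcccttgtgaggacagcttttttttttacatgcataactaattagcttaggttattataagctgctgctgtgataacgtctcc

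The Foxd3 window held 1 TGACGTCA and 1 CACGTG, the Ednrb window 1 GCCNNNGGC, and the melanocyte-type Mitf window 1 TGACGTCA, while the Ngfr window held none of the 7. TGACGTCA was present in 1.55% of 32851 promoter windows of the same length, CACGTG in 6.02% and GCCNNNGGC in 13.7%. The motifs without a match in these windows occurred in 9.59% (GGCGCC), 0.167% (GTCTAGAC), 16.5% (ACAAAG) and 12.3% (CATGTG) of all windows. The base composition differed, with 70.4% G and C in front of Ngfr, 65.6% for Foxd3, 56.8% for Ednrb and 36.0% for the melanocyte-type Mitf start. In build mm9, to which the reads had been aligned, Sox10 lies at chr15:78985343-78994920, Foxd3 at chr4:99322990-99325362, Erbb3 at chr10:128004579-128026708, Ngfr at chr11:95430132-95449049, Ednrb at chr14:104213842-104243390 and Mitf at chr6:97757052-97971352. The annotation places another short gene within the span of Foxd3, on the same strand, and another within the span of Mitf, on the opposite strand. The libraries are unstranded, and whether reads of these short genes were counted with the members was not checked.

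The 6 genes spanned a wide range of levels. Scaled to exon length (RPKM, which is CPM divided by the exon length in kilobases), wild-type forelimb buds at 30 somites had 7.90 ± 2.41 (SD, n = 3) for Ngfr, 1.45 ± 0.218 for Erbb3, 0.748 ± 0.0768 for Ednrb and 0.440 ± 0.0159 for Mitf, and the ranges of neighbouring genes did not overlap. Sox10 followed at 0.0510 ± 0.0334 RPKM, and Foxd3 had 0 reads in all 3 libraries. The order was the same in the wild type at 35 somites, where the ranges of Mitf (0.424 ± 0.0636) and Sox10 (0.295 ± 0.108) overlapped. In Smad4Δ/Δc forelimb buds the ranges of Erbb3 and Ednrb overlapped at both stages, and so did those of Sox10 with Foxd3 at 30 somites and with Mitf at 35 somites. A filter of at least 1 CPM in at least 3 libraries was passed by 4 of 6 genes. Sox10 and Foxd3 stayed under it, and their tests come from a fit that kept the 16751 genes with 10 or more reads in all libraries together.

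**Figure D1:**
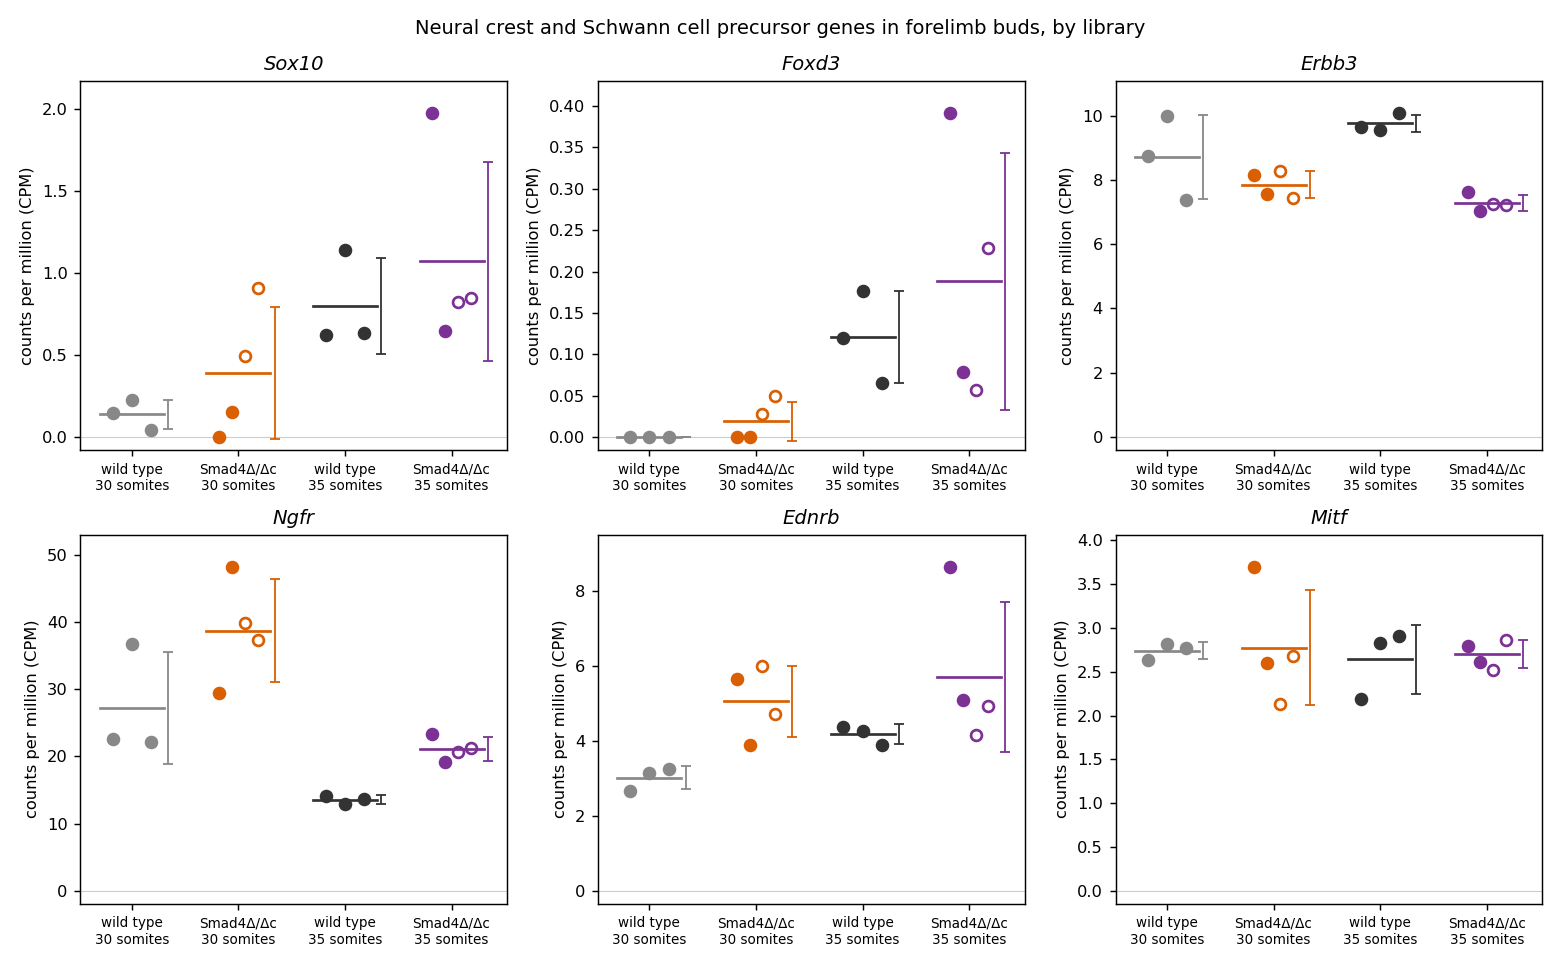
Level of each gene in each of the 14 libraries in CPM (vertical axis, a separate linear scale per gene) by group (horizontal axis), with points for libraries, horizontal lines for group means and bars for 1 SD, open points being the mutant libraries 4 and 5. At 35 somites Foxd3 lay higher in both genotypes and Sox10 in the wild type, while the mutant Sox10 groups overlapped. Ngfr lay lower at 35 somites, and Mitf stayed between 2.13 and 3.69 CPM.

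Sox10 was low at 30 somites and higher at 35 somites in the wild type, whereas in Smad4Δ/Δc forelimb buds the stages overlapped. In wild-type forelimb buds Sox10 had 8, 11 and 2 reads at 30 somites (0.146, 0.225 and 0.0440 CPM) and 26, 58 and 29 reads at 35 somites (0.625, 1.14 and 0.635 CPM). The groups did not overlap, and the difference was 2.52 ± 0.428 (SE) on the log2 scale (edgeR exact test, adjusted p = 0.0386). In whole buds, more crest cells and more RNA per cell cannot be told apart. In Smad4Δ/Δc forelimb buds the 30-somite libraries had 0, 9, 18 and 37 Sox10 reads (0, 0.156, 0.492 and 0.910 CPM), the last 2 values being those of libraries 4 and 5. At 35 somites these buds had 111, 33, 29 and 26 reads (1.97, 0.644, 0.821 and 0.847 CPM). The mutant groups overlapped, and the difference of 1.49 ± 0.798 did not pass the threshold (adjusted p = 0.118). Without the mutant libraries 4 and 5 it was 4.03 and passed (adjusted p = 1.92e-05), with only those libraries it was 0.25 (adjusted p = 0.884), and without library 5 at 30 somites alone it was 2.39 (adjusted p = 0.00464). The wild-type call is also narrow: it was lost with edgeR's quasi-likelihood test (adjusted p = 0.116), with DESeq2 (0.122), and without replicate 1 or 3 at 30 somites (0.108 and 0.227) or replicate 2 at 35 somites (0.163).

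Foxd3, at still lower counts, was higher at 35 somites in both genotypes. None of the 3 wild-type libraries held a Foxd3 read at 30 somites, a count of 0 among 154594446 reads on genes, which allows up to 0.0194 CPM, and they held 5, 9 and 3 reads at 35 somites. Taking 3 reads over the group as the floor, the level at 35 somites was at least 6.24-fold higher (edgeR exact test, adjusted p = 0.0137). The call was lost without wild-type replicate 2 at 30 somites (adjusted p = 0.125), and DESeq2 gave no adjusted value for it. The 4 Smad4Δ/Δc libraries had 0, 0, 1 and 2 reads at 30 somites and 22, 4, 2 and 7 at 35 somites. In CPM the groups did not overlap, but only through library size. The highest library at 30 somites and the lowest at 35 somites held 2 reads each (0.0492 and 0.0566 CPM). The ratio of these reads was 13.3, with a 95% counting interval of 4.19 to 67.6 (edgeR exact test, adjusted p = 0.00208). Without libraries 4 and 5 the remaining mutant libraries at 30 somites held 0 reads, and the test passed (adjusted p = 0.00181). With only libraries 4 and 5 the log2 difference was 1.75 and did not pass (adjusted p = 0.450). Such intervals and floors cover counting error only.

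The share of all genes called between the stages gives the background for these counts. In the fit that includes low genes, 7.93% of 16751 genes were called between stages in the wild type and 16.1% in Smad4Δ/Δc forelimb buds. Both low members were called in the wild type, and Foxd3 in the mutants. Because each library group serves in 2 comparisons, the stage and genotype comparisons share samples and are not independent of one another.

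Cdh19, which encodes a cadherin of Schwann cell precursors, was also higher at 35 somites. It had 0, 0 and 1 read in the wild type at 30 somites and 6, 12 and 14 at 35 somites, a read ratio of 35.2 with a wide 95% counting interval of 5.88 to 1434 (edgeR exact test, adjusted p = 0.00757). In Smad4Δ/Δc forelimb buds it went from 0, 2, 2 and 7 reads to 46, 10, 8 and 1 (log2 difference 2.36, adjusted p = 0.0345), and the ranges overlapped. Sox2, a gene of neural progenitors and immature glia, rose with stage in the wild type (3, 6 and 4 reads, then 7, 23 and 14, adjusted p = 0.0495). In the mutants it was not called, with 3, 5, 4 and 7 reads, then 18, 7, 2 and 3.

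The Smad4Δ/Δc replicate 1 at 35 somites stood out. It had the most reads of any library for Sox10 (111), Foxd3 (22), Cdh19 (46) and the glial fatty-acid binding protein gene Fabp7 (15), and also the highest Ednrb level (8.62 CPM). For Sox10 the other 3 libraries of its group held 26 to 33 reads, for Foxd3 2 to 7, for Cdh19 1 to 10 and for Fabp7 0 to 4. Other glial genes did not follow, with 0 reads of S100b and 1 of Egr2 in this library, and 18 of Sox2 against 23 in a wild-type library of the same stage. Of the 20 neural crest and glial genes, 13 were highest of the group in this library and 3 lowest. It also differed in other cell type lists: all 12 limb ectoderm genes were lowest of the group (summed 231 CPM, against 314 to 327 in the other 3 libraries), and 6 of 8 macrophage genes were the highest of all 14 libraries (summed 29.6 CPM, against 17.9 to 23.0). The part of these differences in its Sox10, Foxd3 and Ednrb levels was not tested.

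**Figure D2:**
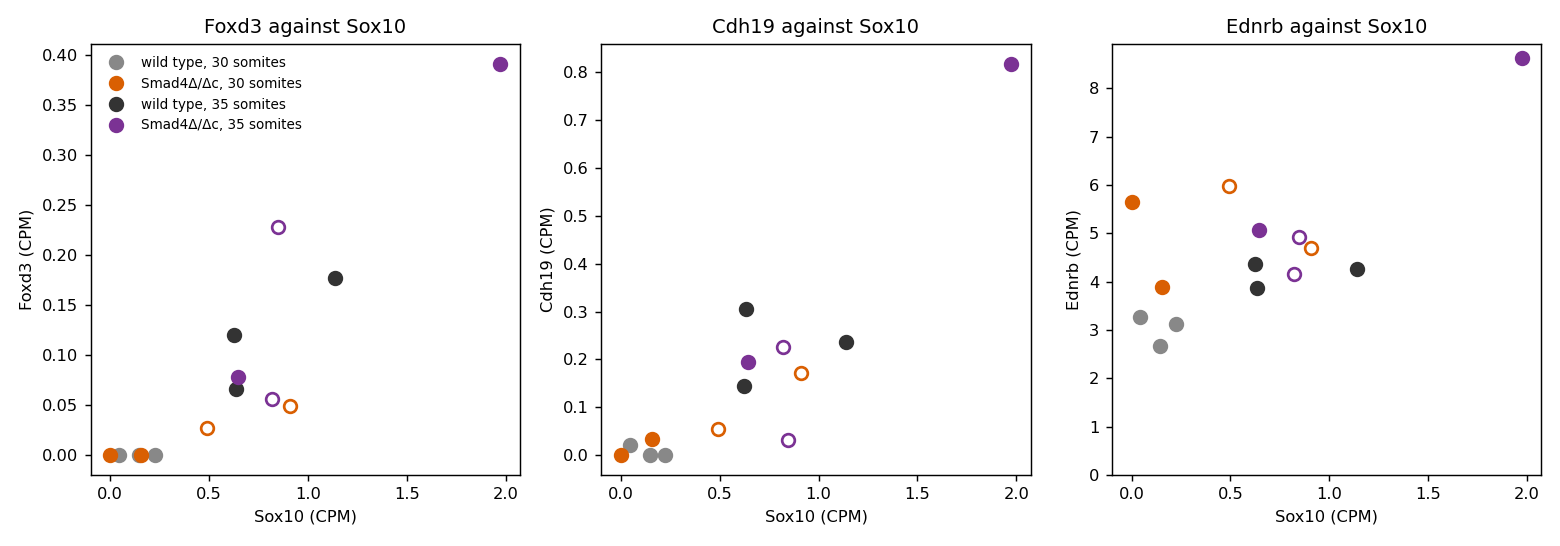
Level of Foxd3, Cdh19 and Ednrb (vertical axes, CPM) against the level of Sox10 (horizontal axis, CPM) in the 14 libraries, with open points for the mutant libraries 4 and 5. The mutant replicate 1 at 35 somites lies at the upper right of each panel, at 1.97 CPM of Sox10, and the wild-type libraries at 30 somites lie at the lower left.

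Between genotypes, neither transcription factor gene passed the test. At 30 somites the Sox10 groups overlapped and differed by 1.45 ± 0.807 on the log2 scale (adjusted p = 0.367, exact two-sided permutation p = 0.429), and the sign turned to -0.83 without the mutant libraries 4 and 5. At 35 somites the difference was 0.43 ± 0.413 (adjusted p = 0.971, exact permutation p = 0.657), and -0.06 without the high mutant replicate 1. Foxd3 differed at 35 somites by 0.65 ± 0.441 (adjusted p = 0.942, exact permutation p = 0.543), and by -0.09 without that replicate. At 30 somites Foxd3 had 0 reads in the wild type and 3 over the mutant group, both within the floor, so that no fold is given. The spread between the mutant libraries is larger than the difference for both genes.

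Ngfr, the most abundant of the 6, fell with stage and was higher in Smad4Δ/Δc forelimb buds. Wild-type libraries had 22.6, 36.8 and 22.2 CPM at 30 somites and 14.2, 12.8 and 13.7 CPM at 35 somites. The mutant libraries had 29.5, 48.2, 39.9 and 37.3 CPM, then 23.4, 19.2, 20.6 and 21.2 CPM. Both stage groups were separate in each genotype, and the level at 35 somites was 0.499 of that at 30 somites in the wild type (log2 difference -1.003 ± 0.242, adjusted p = 2.58e-06) and 0.545 in the mutants (-0.87 ± 0.157, adjusted p = 5.67e-07, exact permutation p = 0.0286). Across all genes tested, 10.1% were called between stages in the wild type and 19.2% in the mutants. Among the 4 genes that passed the filter, Ngfr alone was called with stage in either genotype.

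The genotype difference of Ngfr was clearest at 35 somites. There the lowest mutant library (19.2 CPM) exceeded the highest wild-type library (14.2 CPM), and the level was 1.55-fold higher (log2 0.64 ± 0.0719, adjusted p = 0.00892, exact permutation p = 0.0286, the smallest that 3 against 4 libraries allow). The call missed the threshold without wild-type replicate 2 (adjusted p = 0.101), at a log2 difference of 0.60. At 30 somites the groups overlapped because wild-type replicate 2 reached 36.8 CPM. The level was 1.42-fold higher (log2 0.51 ± 0.279, adjusted p = 0.0521, exact permutation p = 0.143), and the call was lost with the quasi-likelihood test (0.122) and without wild-type replicate 1 (0.275), wild-type replicate 3 (0.431) or mutant replicate 3 (0.179). Without the mutant libraries 4 and 5 Ngfr was called at both stages, with log2 differences of 0.53 and 0.66, and between the mutant stages, at -0.86 (adjusted p = 0.00331).

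Ednrb was also higher in the mutants at 30 somites. The wild-type libraries had 2.67, 3.13 and 3.26 CPM and the mutant libraries 5.64, 3.90, 5.98 and 4.70 CPM, without overlap, a 1.67-fold difference (log2 0.74 ± 0.161, adjusted p = 0.0326, exact permutation p = 0.0571). The call was lost without wild-type replicate 1 (adjusted p = 0.169) or replicate 3 (0.113), with log2 differences of 0.66 and 0.81, and it stood at 0.68 without the mutant libraries 4 and 5 (0.0439). At 35 somites the wild type had 4.37, 4.26 and 3.87 CPM and the mutants 8.62, 5.07, 4.16 and 4.92 CPM. These groups overlapped, and the difference of 0.46 ± 0.230 did not pass (adjusted p = 0.460), although without the mutant libraries 4 and 5 it was 0.73 and passed (0.0637). Between stages the wild-type groups of Ednrb did not overlap and differed by 0.47 ± 0.0996, short of the threshold (adjusted p = 0.245, exact permutation p = 0.1, the smallest that 3 against 3 allow). The mutant difference was 0.18 ± 0.263 (adjusted p = 0.623).

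Erbb3 moved the other way at 35 somites. The wild type had 9.66, 9.56 and 10.1 CPM and the mutants 7.61, 7.04, 7.25 and 7.23 CPM, groups that did not overlap. The mutant level was 0.746 of the wild-type level (log2 -0.42 ± 0.0321, adjusted p = 0.0394, exact permutation p = 0.0286). The size was stable when single libraries were left out (-0.44 to -0.39), but the call was lost in 6 of 7 such fits (adjusted p between 0.102 and 0.200) and without the mutant libraries 4 and 5 (0.182). At 30 somites the wild-type libraries had 8.74, 9.998 and 7.37 CPM and the mutant libraries 8.14, 7.55, 8.28 and 7.43 CPM. They overlapped, and the difference of -0.15 ± 0.131 did not pass (adjusted p = 0.592). With stage, Erbb3 differed by 0.16 ± 0.128 in the wild type and -0.11 ± 0.0447 in the mutants, and neither passed (adjusted p = 0.521 and 0.617).

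Mitf did not pass any test. Its libraries had 2.63, 2.82 and 2.77 CPM in the wild type and 3.69, 2.60, 2.13 and 2.68 CPM in the mutants at 30 somites, then 2.19, 2.83 and 2.91 against 2.79, 2.61, 2.52 and 2.87 CPM at 35 somites. The log2 differences were 0.03 ± 0.161 and 0.03 ± 0.133 between genotypes and -0.05 ± 0.129 and -0.05 ± 0.164 between stages, with adjusted p values from 0.916 to 0.996. The 11 genes of the melanoblast list ranged widely. Kit, Tyr, Slc24a5 and Trpm1 passed the filter, and Tyr, which encodes tyrosinase, had 75 to 233 reads per library and was not called in any comparison. The other 7 stayed under the filter, among them Tyrp1 with 0 reads in every library, Mlana with at most 6 and Dct with at most 14.

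**Figure D3:**
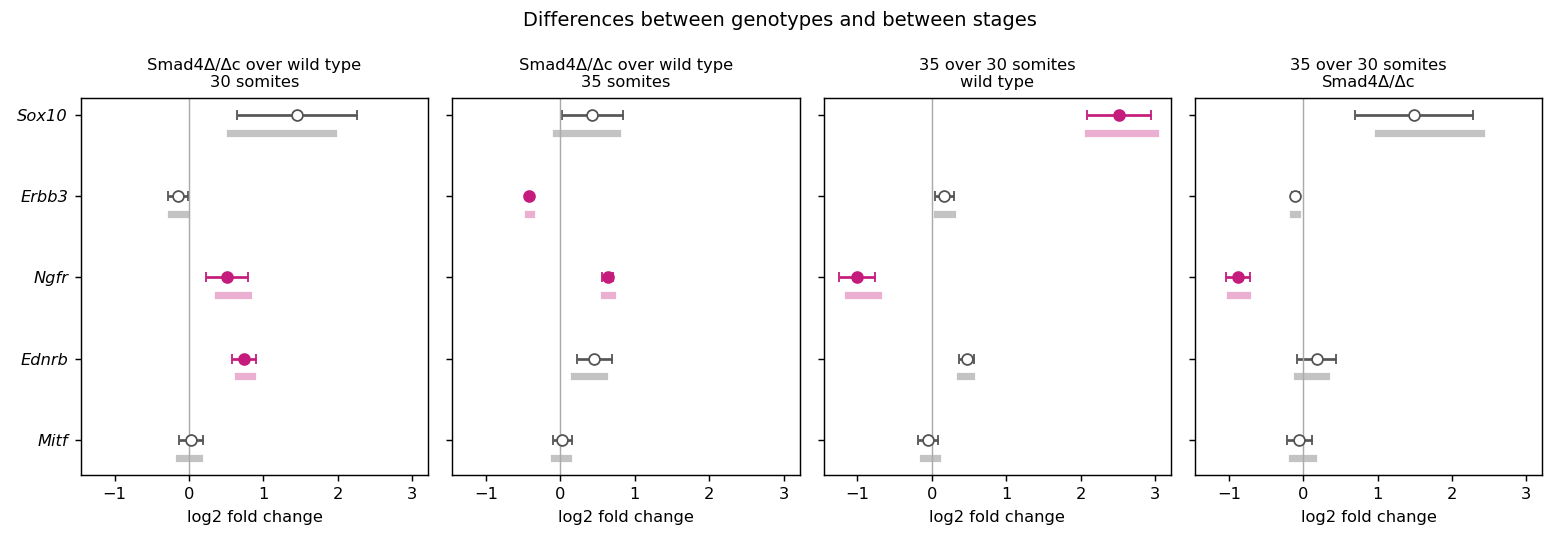
Log2 fold change of 5 genes in the 4 comparisons (horizontal axis, points with bars of 1 SE), filled where the edgeR exact test passed and open where it did not, with thick bars for the range when single libraries were left out. Foxd3 is not drawn because it had 0 reads in the wild type at 30 somites. Ngfr lies right of zero between genotypes and left of zero between stages in each panel.

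Of the 6 genes, 2 were called between genotypes at 30 somites, Ngfr and Ednrb, where 6.61% of 12393 genes tested were called. At 35 somites 2 were called, Ngfr and Erbb3 in opposite directions, where 3.73% of the 12393 genes were called. These shares are of genes that passed the filter, which Sox10 and Foxd3 did not. In the fit of 16751 genes used for Sox10 and Foxd3, 839 were called between genotypes at 30 somites and 524 at 35 somites. The 4 genes that passed the filter did not share a direction between genotypes. At 30 somites the log2 differences were 0.74 for Ednrb, 0.51 for Ngfr, 0.03 for Mitf and -0.15 for Erbb3. In the same order they were 0.46, 0.64, 0.03 and -0.42 at 35 somites. Whether the genotype difference itself differed between stages was tested as an interaction with edgeR's quasi-likelihood test, and 0 of 6 genes were called, with 0 at an unadjusted p under 0.05 both in this test and in DESeq2. Erbb3 came closest (interaction -0.27, unadjusted p = 0.0707, adjusted p = 0.923). Of the 12393 genes, 0.186% were called in the interaction, and in the fit of 16751 genes 37 were called. So Erbb3 and Ednrb passed at one stage only, and a difference between the stages was not shown. The 24 permutation p values, 1 for each gene and comparison, were not adjusted.

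Genes that work with the receptors were read from the same fit. Of 10 neurotrophin ligand and receptor genes, 6 passed the filter. In the wild type 2 of these rose with stage and 0 fell, and in Smad4Δ/Δc forelimb buds 3 rose and 0 fell. Bdnf rose 2.11-fold in the wild type (3.58 ± 0.680 to 7.53 ± 0.537 CPM, adjusted p = 1.32e-06) and 1.85-fold in the mutants (adjusted p = 2.70e-06). Ntf3, the gene of neurotrophin 3, rose 1.83-fold and 1.93-fold (adjusted p = 1.39e-05 and 3.96e-09). Both encode ligands that p75 can bind, and their levels rose over the interval in which Ngfr fell. Sort1, which encodes the p75 co-receptor sortilin, was 1.23-fold higher in the mutants at 35 somites (adjusted p = 0.0599).

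Of 6 other endothelin pathway genes, 4 passed the filter, and the ligand gene Edn3 and the second receptor gene Ednra rose with stage in both genotypes. Edn3 rose 1.47-fold in the wild type (11.5 ± 1.73 to 17.0 ± 0.924 CPM, adjusted p = 0.000696) and 1.62-fold in the mutants (adjusted p = 5.60e-08). Ednra rose 1.30-fold and 1.35-fold (adjusted p = 0.00504 and 1.82e-05), at 95.6 ± 12.3 CPM in the wild type at 30 somites. Neither was called between genotypes, and Ece2, a converting enzyme gene, was 0.785 of the wild-type level in the mutants at 35 somites (adjusted p = 0.0955). Edn2 had 0 reads in every library. Of 7 neuregulin and ErbB genes, 2 passed the filter. Erbb2, whose product is the signaling partner of ERBB3, was not called in any comparison (group means of 50.0 to 55.5 CPM), and Egfr was 1.45-fold higher in the mutants at 30 somites (adjusted p = 0.0432) and fell between stages in the mutants to 0.643 (adjusted p = 0.000660). The neuregulin genes Nrg1 to Nrg4 were all under the filter.

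Of 5 genes of the Mitf family and its partners, 3 passed the filter, and Tfec, a close relative of Mitf, was 1.74-fold higher in the mutants at 30 somites (adjusted p = 0.0746). In the melanoblast list, Kit, the receptor gene of migrating melanoblasts that blood and endothelial precursors share, was 1.27-fold higher in the mutants at 30 somites (adjusted p = 0.0608). Trpm1 was 0.565 of the wild-type level in the mutants at 35 somites (adjusted p = 0.0346) and fell with stage in the mutants to 0.480 (adjusted p = 9.42e-05).

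Of 20 further neural crest and glial genes, 10 passed the filter. Between genotypes the same counts were found at 30 and 35 somites, 2 higher and 1 lower in the mutants, and these were Sox8, Gfra3 and Snai2 each time. Sox8, a close relative of Sox10, was 1.79-fold and 1.92-fold higher (10.7 ± 1.84 against 19.2 ± 2.82 CPM at 30 somites, adjusted p = 1.66e-05 and 7.87e-07). Gfra3, which encodes the artemin receptor, was 1.98-fold and 2.58-fold higher (0.824 ± 0.341 against 1.65 ± 0.318 CPM at 30 somites, adjusted p = 0.0292 and 0.000241). Snai2, which encodes a repressor used by migrating crest and by limb mesenchyme, was at 0.696 and 0.673 of the wild-type level (adjusted p = 1.84e-05 and 1.18e-06). With stage 3 of the 10 rose in the wild type and 0 fell, and in the mutants 3 rose and 1 fell. Tfap2b, the gene of an AP-2 factor, rose 2.16-fold and 2.05-fold (adjusted p = 8.40e-14 and 7.55e-17), and Sox9 rose 1.44-fold and 1.74-fold (0.00657 and 1.19e-08). Limb mesenchyme and ectoderm also transcribe Sox9, Sox8, Snai2 and the AP-2 genes, so these are not markers of crest cells here. The median log2 difference of the 10 was 0.18 and 0.16 between genotypes and 0.13 and 0.16 between stages, against values between -0.02 and -0.01 over all genes. Glial genes of later stages stayed low: S100b had at most 6 reads and Egr2 at most 9.

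Markers of other cell types moved with some of these groups. Summed over 6 mesothelium and body wall genes, the level at 30 somites was 8.28 to 11.7 CPM in the wild type and 15.8 to 29.6 in the mutants, where Ngfr and Ednrb were also higher. Of the 5 that passed the filter 3 were higher, with Wt1 at 5.19-fold and Upk3b at 10.2-fold (adjusted p = 5.53e-07 and 1.04e-06). At 35 somites the same sum was 10.98 to 13.8 CPM in the wild type and 6.38 to 10.3 in the mutants, where Ngfr was still higher. Of the 5 genes 0 were higher and 2 lower there, Wt1 at 0.375 and Upk3b at 0.296 of the wild-type level (adjusted p = 0.00567 and 0.0329). The sum over 8 macrophage genes was 3.41 to 8.005 CPM against 8.96 to 11.2 at 30 somites, with 3 of 7 called higher, and it rose with stage, with 7 of 7 called in both genotypes, to 15.3 to 19.7 and 17.9 to 29.6 CPM. The sum over 9 limb mesenchyme genes was 1546 to 1792 CPM against 1339 to 1627 at 30 somites and 1795 to 1933 against 1631 to 1831 at 35 somites. At 30 somites 4 of 8 were lower in the mutants and 0 higher, and at 35 somites 3 were lower and 2 higher. Prrx2, a homeobox gene of the mesenchyme, was at 0.495 and 0.563 of the wild-type level at the 2 stages. Endothelial sums overlapped between genotypes at 30 and at 35 somites, with 0 of 8 genes called by edgeR between genotypes. The part of these differences in the results for Ngfr, Ednrb and Erbb3 was not tested.

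Ectoderm and muscle precursors, which also transcribe Ngfr or other of these genes, were looked at in the same way. Of 12 limb ectoderm genes, 0 were higher and 1, Krt5 at 0.760, was lower in the mutants at 30 somites (adjusted p = 0.0485), and 0 were called in either direction at 35 somites. With stage 2 fell in the wild type, and in the mutants 2 rose and 3 fell. The dorsal ectoderm gene Wnt7a fell in both genotypes, to 0.529 and 0.508 of its level at 30 somites (adjusted p = 5.43e-05 and 1.37e-07). In the mutants Krt14 rose 1.66-fold and Krt5 1.31-fold (adjusted p = 0.00342 and 0.00979). The part of the ectoderm in the fall of Ngfr was not tested. Of 7 muscle precursor genes, 5 passed the filter, and 3 rose with stage in each genotype while 1, Lbx1, fell in the wild type. Myf5, a determination gene of muscle, rose 8.87-fold in the wild type and 3.07-fold in the mutants (adjusted p = 1.02e-20 and 4.53e-09). Between genotypes 2 were higher in the mutants at 30 somites, Myf5 (2.40-fold) among them, and 0 were called at 35 somites. Of 16 neuron genes, 8 passed the filter. With stage 1 fell in the wild type, Isl2 at 0.573 (adjusted p = 0.0605), and in the mutants 1 rose and 3 fell, Nefm to 0.469 (adjusted p = 4.43e-05) and Nefl to 0.509 (adjusted p = 0.000958) among them. Stmn2, which encodes a tubulin-binding protein of growing axons, rose to 1.43-fold (adjusted p = 0.0295). Between genotypes Isl1 was higher in the mutants at 30 somites by 1.32 on the log2 scale (adjusted p = 0.0300). The sensory neuron gene Pou4f1 was at 0.531 and 0.441 of the wild-type level at 30 and 35 somites (adjusted p = 0.0821 and 0.0254). The neurogenic genes Neurog1, Neurog2 and Neurod1 had at most 1, 4 and 3 reads in any library.

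**Figure D4:**
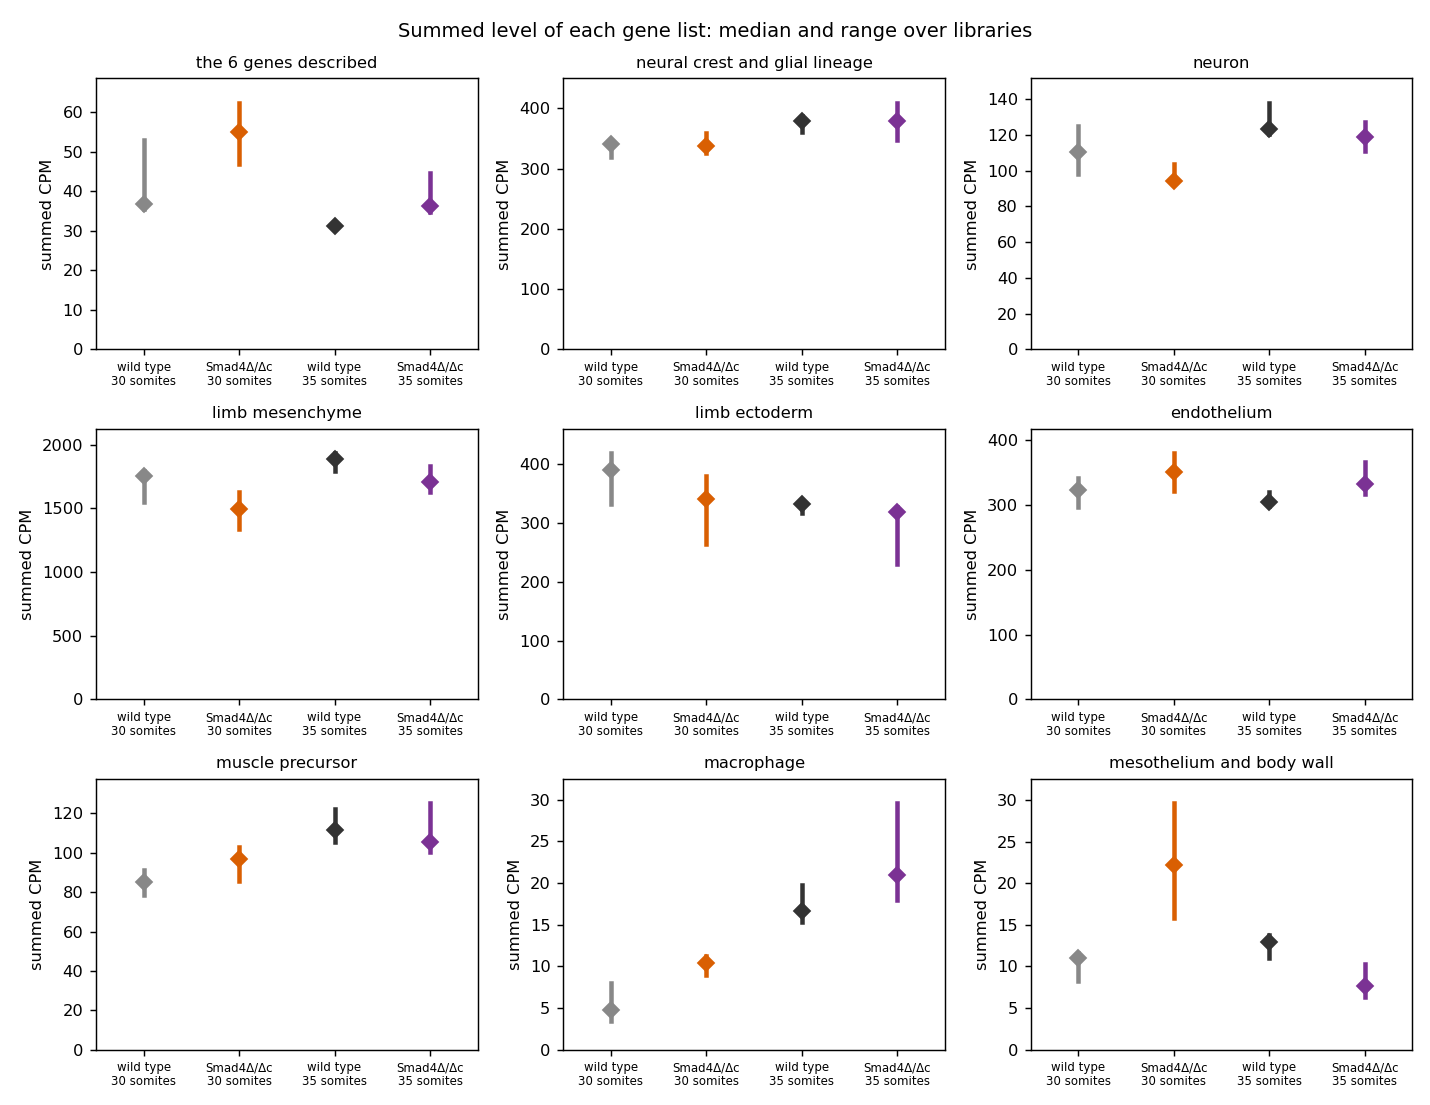
Summed level of each gene list in CPM (vertical axes from 0, a separate scale per list) in the 4 groups (horizontal axis), with diamonds for the median and bars for the full range over libraries. The mesothelium and body wall list was high in mutants at 30 somites (15.8 to 29.6 CPM), and the macrophage list rose with stage in both genotypes.

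The tested genes whose levels followed each member most closely over the 14 libraries were ranked by the Pearson correlation of log2(CPM + 1), as a description of these libraries, which share groups and depth. For Ngfr they included Adarb1 (r = 0.959), Crym (0.933), Chrna5 (0.927) and Ddx21 (0.918). For Sox10 they were Olfml3 (0.926), Dnajc28 (0.902), Tbx1 (0.881), Phactr1 (0.856) and Pitpnc1 (0.849), and Phactr1 was also among the 5 closest to Foxd3 (0.841), behind Foxo1 (0.870). Jph2, Me1 and Rgs5 led for Erbb3 (0.882, 0.876 and 0.866), Fbxo38 and Ssh2 for Ednrb (0.851 and 0.846) and Ints8 for Mitf (0.905). Once the group means had been removed, Olfml3 still led for Sox10 (0.854), Adarb1 remained among the 5 closest to Ngfr (0.852), and the closest to Mitf were Dbf4 (0.936) and Spc25 (0.936), genes of replication and of the kinetochore. Between the members themselves, the closest pair by level was Sox10 and Foxd3 (0.869, and 0.725 without the group means). Foxd3 and Ednrb followed (0.663, and 0.739 without the group means, the closest pair there), then Sox10 and Ednrb (0.611 and 0.488). The mutant replicate 1 at 35 somites was the highest library for Sox10, Foxd3 and Ednrb. Its weight in these correlations was not tested.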

How the data were processed

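The deposited files hold whole-number read counts per gene, 1 table per library. Per the study's methods the authors sequenced poly(A)-selected RNA as unstranded single reads, aligned it to mm9 with TopHat 2.0.13 and counted uniquely mapped reads with htseq-count without using strand. Rows for reads on no gene (6.18% to 9.86%) or on more than 1 gene (1.49% to 1.75%) were left out of library sizes. Tests were the exact test of edgeR 4.0.16 (R 4.3.3) after TMM scaling with tagwise dispersions over all 14 libraries, without genes of the X, Y and mitochondrial chromosomes and with at least 1 CPM in at least 3 libraries. A gene was called at a Benjamini-Hochberg adjusted p of at most 0.1 and a fold of at least 1.2. The interaction used edgeR's quasi-likelihood test, and DESeq2 1.42.0 was an alternative. For each member an exact two-sided permutation test of the mean TMM-normalised CPM was added (scipy 1.17.1). Scripts were tested on simulated data. SE values come from the replicate variances of log2(CPM + 0.1), and RPKM used GENCODE exon lengths on the same build as the files. Promoter windows are from RefSeq.

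The members and gene lists were chosen with earlier results of these data known. Named are the members, the list genes that passed a test, up to 4 per list and comparison by adjusted p, and the genes closest to each member. List genes given only by their reads (the low glial, pigment, neuron and receptor genes) were chosen after their values were seen. Between the Smad4Δ/Δc stages, same-numbered libraries deviated together in 3 of 3 pairs (correlations of 0.269 to 0.611), which met the criterion for pairing (over 0.1 in every pair). Differently numbered libraries ranged from -0.587 to 0.383, and those of 4 with 5 (0.383 and 0.286) and of 1 and 3 with 2 (0.349 and 0.319) exceeded the lowest same-numbered pair, so a split of libraries 4 and 5 from the rest cannot be told apart from pairing by number. A replicate block changed no call there. Separate embryos make the replicates. Some genes of the lists and of the closest genes are not reported here.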

Additional observations from a re-analysis of the deposited data

Results flagged for a closer look

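Sox10 in the 4 Smad4Δ/Δc libraries at 35 somites was flagged because 1 library lay far from the others. Replicate 1 held 111 reads (1.97 CPM) and the others 26 to 33 reads (0.644 to 0.847 CPM). Its gap to the nearest library was 0.848 of the range of the group, above the critical value of Dixon's test for 4 samples. Chance flags about 1 in 20 groups, and groups of 3 were not tested. The same library was the highest of all for Foxd3, Cdh19, Fabp7 and Ednrb, the lowest of its group in 12 of 12 limb ectoderm genes and the highest of all in 6 of 8 macrophage genes.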

How the results depend on the processing

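Of 430 alternative values of single results, 371 kept direction and side of the threshold, 23 lost the call, 5 gained it and 31, none of them of a called result, changed sign. Over the called results with a fold, all 120 alternatives kept the direction. With the replicate block the members called were 1 at 30 somites and 0 at 35 somites between genotypes (Ednrb adjusted p = 0.142, Ngfr 0.119, Erbb3 0.160), against 2 and 2 without it. Same-numbered libraries did not deviate together there (correlations of -0.188 and 0.174, and of -0.260 and -0.0512), nor in the wild type between stages (-0.283 to -0.0785), so the numbers are not taken as pairs. The quasi-likelihood test called 1 member at 30 somites, DESeq2 called 1 between wild-type stages with no adjusted p for Foxd3, and with only mutant libraries 4 and 5 the mutant stages gave 1. Signs changed for Sox10 between genotypes at 30 somites (-0.43 with the block, -0.83 without mutant libraries 4 and 5) and, with only mutant libraries 4 and 5, for Ednrb (-0.22) and Mitf (0.17) between mutant stages. In the interaction they changed for Mitf (-0.0091 with RLE factors, -0.0145 with DESeq2, -0.088 with the block, -0.0064 without Rn45s, -0.17 without mutant libraries 4 and 5, -0.0163 without the CPM filter), for Sox10 (0.86 with the block, 1.54 without libraries 4 and 5), for Ngfr (-0.10 with the block) and for Ednrb (0.051 without libraries 4 and 5). The cause was not tested.

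Leaving out single libraries moved the number of members called to 0 to 3 and 0 to 2 between genotypes at 30 and 35 somites, and to 2 to 3 between stages in either genotype. At 30 somites Sox10 passed without mutant replicate 1 (1.87, adjusted p = 0.0748). Ranges that crossed 0 were, between genotypes, -0.14 to 0.13 for Mitf at 30 somites and, at 35 somites, -0.065 to 0.77 for Sox10, -0.092 to 1.03 for Foxd3 and -0.083 to 0.11 for Mitf. Between stages they were -0.12 to 0.072 for Mitf in the wild type, and -0.088 to 0.31 for Ednrb and -0.15 to 0.12 for Mitf in the mutants. In the interaction they were -0.15 to 0.25 for Ngfr and -0.12 to 0.17 for Mitf. In the wild type between stages Ednrb passed when only those samples were fitted (adjusted p = 0.0432).

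Over all genes, 819 calls between genotypes at 30 somites became 1990 with the block, 2018 without mutant libraries 4 and 5 and 254 to 1062 without single libraries, and their split of 413 higher and 406 lower became 519 and 313 without Rn45s. The 462 calls at 35 somites became 286 to 468 without single libraries. Between wild-type stages 1256 became 1899 with the block, 1932 with only those samples and 484 to 1357 without single libraries. The interaction's 23 became 0 with the block, 85 with DESeq2, 6 without mutant libraries 4 and 5 and 7 to 34 without single libraries. At 0 to 111 reads per library, depth limits Sox10 and Foxd3 to large changes.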
